A study of Mus musculus with 28 samples.

Results

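Intestinal drug-metabolising cytochrome P450 (P450) genes were followed in mice that differ at the vitamin D receptor gene Vdr. The 9 genes are Cyp3a11, Cyp3a13, Cyp3a25, Cyp2b10, Cyp2c65, Cyp2c66, Cyp2d26, Cyp2j6 and Cyp4f14, taken by symbol from the 31179 gene rows of the duodenum count table. All 9 passed the expression filter there. The kidney cortex table, with 30227 gene rows, served as comparison; it has rows for 5 of them (Cyp3a11, Cyp3a13, Cyp2d26, Cyp2j6 and Cyp4f14), of which Cyp2d26, Cyp2j6 and Cyp4f14 passed its filter. Cyp3a25, Cyp2b10, Cyp2c65 and Cyp2c66 were not analysed here in kidney.

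P450 enzymes are haem proteins of the endoplasmic reticulum that oxidise drugs, steroids, bile acids and fatty acids with electrons passed on by the reductase Por. In the small intestine they are made mainly by mature enterocytes of the villus, where they meet swallowed compounds first. Nuclear receptors switch many of them on: the pregnane X receptor Nr1i2 and the constitutive androstane receptor Nr1i3 are the best known, and the hormone-bound vitamin D receptor can bind some of the same DNA elements and is known to induce intestinal Cyp3a genes.

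RNA came from duodenum and kidney cortex of female mice aged 8 weeks, all fed TD.96348, a diet high in lactose, calcium and phosphate. Each tissue had 6 wild-type libraries (Vdr+/+, called WT), 4 libraries without a functional receptor (Vdr-/-, called KO, the Demay allele in the file header) and 4 libraries with a receptor that cannot work through coactivators (Vdr AF2, called AF2), 28 in all. The labels name no tissue-specific driver for either mutant allele. The comparison asks how loss of the receptor and loss of its coactivator function differ. Nothing in the labels says whether libraries of a group came from separate animals, so p-values measure the spread between these samples.

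The 3 Cyp3a genes lie on chromosome 5 and the neighbours Cyp2c65 and Cyp2c66 on chromosome 19 (RefSeq, GRCm38.p6). Their promoter windows of 250 bases before the start site are shown because the Cyp3a genes are the known receptor targets and because the Cyp2c neighbours are near-copies of each other. The windows are chr5:145879855-145880104, chr5:137921620-137921869 and chr5:146009619-146009868, all on the minus strand, and chr19:39060756-39061005 and chr19:39113648-39113897 on the plus strand. For Cyp3a25, RefSeq lists 2 start sites, and the first is shown. Capitals mark the motifs found.
Cyp3a11: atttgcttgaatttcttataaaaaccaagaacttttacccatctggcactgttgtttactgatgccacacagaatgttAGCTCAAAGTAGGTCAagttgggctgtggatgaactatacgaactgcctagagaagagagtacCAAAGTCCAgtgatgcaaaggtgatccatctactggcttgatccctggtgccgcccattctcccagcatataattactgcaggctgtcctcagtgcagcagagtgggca
Cyp3a13: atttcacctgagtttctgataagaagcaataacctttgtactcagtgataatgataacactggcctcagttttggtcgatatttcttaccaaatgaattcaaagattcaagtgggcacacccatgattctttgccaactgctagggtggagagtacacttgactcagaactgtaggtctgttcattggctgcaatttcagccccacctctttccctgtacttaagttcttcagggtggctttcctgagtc
Cyp3a25: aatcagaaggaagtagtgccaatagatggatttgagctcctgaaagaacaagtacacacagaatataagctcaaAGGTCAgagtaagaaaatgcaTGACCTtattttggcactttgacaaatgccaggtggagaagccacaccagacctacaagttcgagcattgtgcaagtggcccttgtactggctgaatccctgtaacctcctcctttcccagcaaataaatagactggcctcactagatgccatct
Cyp2c65: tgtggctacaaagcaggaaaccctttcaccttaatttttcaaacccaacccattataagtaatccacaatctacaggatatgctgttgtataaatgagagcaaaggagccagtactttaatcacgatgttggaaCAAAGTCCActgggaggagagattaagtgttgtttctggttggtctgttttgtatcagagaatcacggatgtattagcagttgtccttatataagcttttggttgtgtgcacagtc
Cyp2c66: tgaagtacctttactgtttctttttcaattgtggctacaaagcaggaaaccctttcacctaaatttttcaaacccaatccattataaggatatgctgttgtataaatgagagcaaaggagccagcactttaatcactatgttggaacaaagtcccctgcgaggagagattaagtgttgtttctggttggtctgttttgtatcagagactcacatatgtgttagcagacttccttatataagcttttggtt

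The letter strings searched, on both strands, were the receptor half-site AGGTCA, direct repeats of AGNTCA spaced by 3 (AGNTCANNNAGNTCA) or 4 bases (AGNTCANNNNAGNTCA), an everted repeat spaced by 6 (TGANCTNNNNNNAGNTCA), and CAAAGTCCA, a site of the enterocyte and liver factor HNF4. Cyp3a11 held AGCTCAAAGTAGGTCA, a direct repeat spaced by 4 that starts at -172 from the start site and includes a half-site, and CAAAGTCCA at -109. Cyp3a25 held half-sites at -176 and, on the opposite strand, at -155. Cyp2c65 held CAAAGTCCA at -116, and Cyp2c66 did not, although 94.1% of the 221 aligned bases of both windows were identical. The window of Cyp3a13 held none of the strings. Among 32851 RefSeq windows of this length, 14% held the half-site, 0.0517% the repeat spaced by 3, 0.103% that spaced by 4, 0.0304% the everted repeat and 0.384% the HNF4 string. A match is a letter string, not a measured binding site.

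Library totals were 3713352 to 25181916 deposited counts in duodenum (WT 2 at the top, followed by 6519522) and 3725648 to 6492228 in kidney. Every deposited count was even, so read numbers are given as counts divided by 2. Vdr, the altered gene, had normalised counts in duodenum of 266.8 to 645.7 CPM (counts scaled to library size, as CPM throughout) in WT, 97.29 to 120.2 in KO and 362.2 to 432.2 in AF2. The duodenal libraries carried enterocyte markers at high level, with no marker of the list at 0. WT 3 and KO 3 stood apart by liver transcripts: 10 hepatocyte markers summed to 477.2 CPM in WT 3 and 233.4 CPM in KO 3 against 20.37 to 137.8 CPM in the other 12 libraries. Pancreatic acinar markers summed to 12.1 to 14390 CPM. Of the 9 genes, 0 were called in duodenum with all libraries and 0 without WT 3 and KO 3. The latter setting called 1, 0 and 2 of 13510 genes for KO against WT, AF2 against WT and AF2 against KO. With so few calls, the unchanged count cannot decide whether liver transcripts bear on the P450 values. Bulk RNA cannot tell fewer cells of a type from less RNA per cell.

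In mm10 (GENCODE), Cyp3a11 spans chr5:145854426-145879964 on the minus strand, Cyp3a13 spans chr5:137892932-137921619 on the minus strand and Cyp3a25 spans chr5:145977194-146009618 on the minus strand. Cyp2b10 lies at chr7:25897620-25926624 on the plus strand. Cyp2c65 lies at chr19:39061015-39093944 on the plus strand, followed by Cyp2c66 at chr19:39113898-39187072 on the plus strand. Cyp2d26 lies at chr15:82790101-82794294 on the minus strand, Cyp2j6 at chr4:96516138-96553661 on the minus strand and Cyp4f14 at chr17:32905070-32917342 on the minus strand. All are protein-coding, and the counts are of their 3' ends. Vdr itself lies at chr15:97854425-97910630 on the minus strand, on the chromosome that also holds Cyp2d26. Any part of DNA linked to the altered Vdr allele in the Cyp2d26 values was not tested.

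In duodenum no P450 gene of the 9 passed edgeR's quasi-likelihood test in any comparison of genotypes at an adjusted p under 0.05. Over all 13302 genes tested, 0.0226% were called for KO against WT, 0.0677% for AF2 against WT and 0.015% for AF2 against KO (3, 9 and 2 genes). Leaving out WT 4 raised the first 2 counts to 229 and 217, while leaving out any other single library gave 1 to 13 and 0 to 11. No gene of the 9 had groups that did not overlap, beside 2.2%, 2.73% and 6.56% of all genes in these comparisons. At an unadjusted p under 0.05 the count was 1 of 9 for KO against WT, 3 of 9 for AF2 against WT and 0 of 9 for AF2 against KO, beside 11.4%, 11.8% and 9.98% of all genes. DESeq2 called 0 of 9 in each comparison as well, beside 0.827%, 1.16% and 0.699% of all genes, and so did limma-voom, beside 0.0301%, 0.105% and 0.015%. Against WT, 7 of 9 genes had a log2 fold change below 0 in KO and 9 of 9 in AF2, beside 50.4% and 50% of all genes. The median log2 fold change of the 9 genes was -0.29 in KO and -0.30 in AF2, with medians of -0.004 and 0 over all genes. Both comparisons use the same WT libraries.

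**Figure D1:**
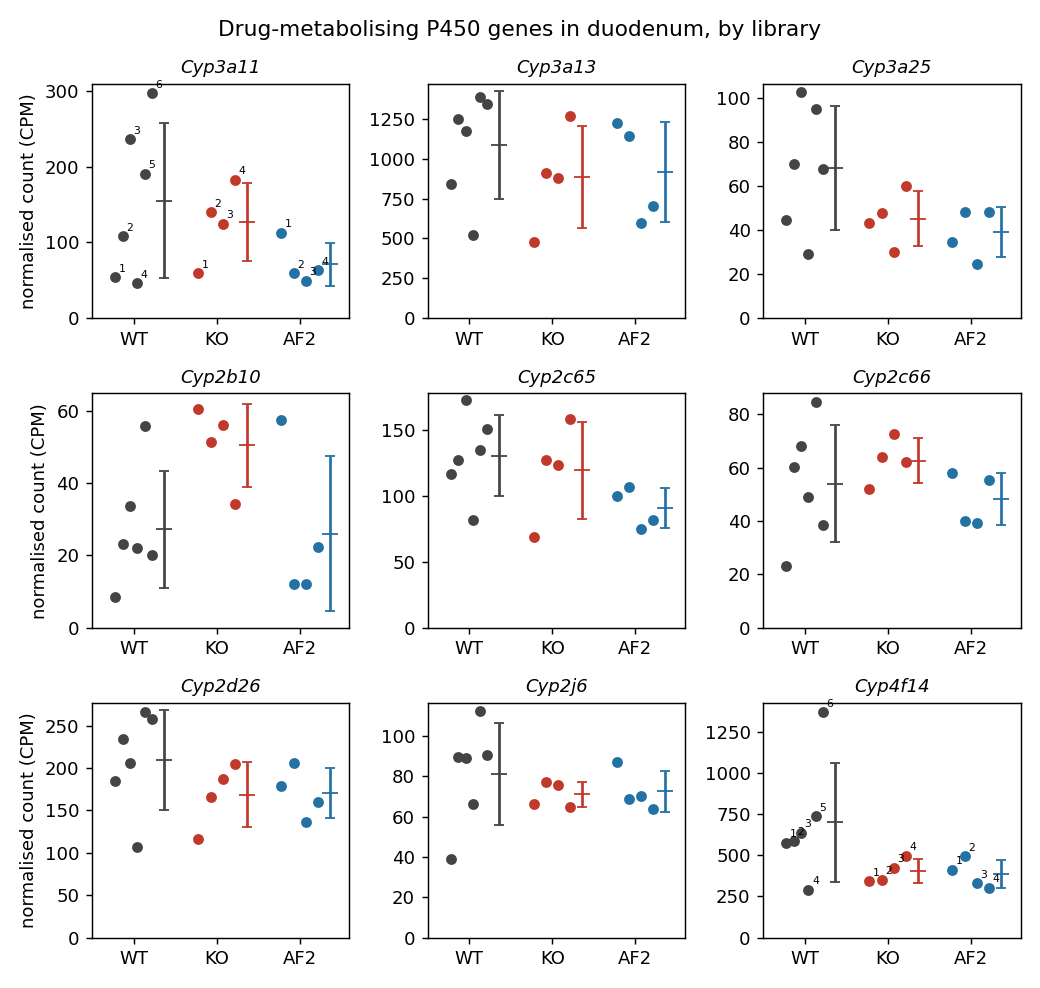
Normalised counts (CPM, linear axes starting at 0) of the 9 P450 genes in each duodenal library, with the group mean and SD (6 WT, 4 KO and 4 AF2 libraries) to the right of the points; numbers name the libraries in the Cyp3a11 and Cyp4f14 panels. The groups overlap for every gene, and the AF2 libraries of Cyp3a11 sit at 49.34 to 112.7 CPM within the WT range of 45.79 to 297.5 CPM.

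Cyp3a11 is the main inducible Cyp3a enzyme of mouse liver and gut and hydroxylates steroids and many drugs. In duodenum its lowest, median and highest WT values were 45.79, 149.5 and 297.5 CPM (155 ± 103, mean ± SD, n = 6). The KO libraries had 59.4, 140.4, 125 and 183 CPM. The AF2 libraries had 113, 59.1, 49.3 and 63.4 CPM. The WT libraries spread widely, with WT 1 and WT 4 as low as the lowest mutant libraries and WT 3, WT 5 and WT 6 above all of them, so the groups overlapped. Relative to WT, its log2 fold change was -0.29 ± 0.54 (SE) in KO (edgeR adjusted p = 0.879) and -1.13 ± 0.56 in AF2 (edgeR adjusted p = 0.473). The 95% interval for AF2, -2.36 to 0.11, includes 0. AF2 against KO gave -0.84 ± 0.60 (edgeR adjusted p = 0.704).

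Cyp3a13, a Cyp3a enzyme expressed mostly in the intestine, had a WT minimum of 522 CPM, a median of 1210 CPM and a maximum of 1389 CPM. Its KO libraries had 479, 911, 880 and 1266 CPM. Its AF2 libraries had 1227, 1146, 599 and 704 CPM. High and low libraries occurred in every genotype, and the groups overlapped almost fully. Its log2 fold change was -0.30 ± 0.33 in KO (edgeR adjusted p = 0.778) and -0.24 ± 0.33 in AF2 (edgeR adjusted p = 0.842).

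Cyp3a25, a Cyp3a enzyme made in liver and intestine, ranged from 29.06 CPM through a median of 68.6 CPM to 102.4 CPM in WT. Its values were 43.0, 47.6, 29.9 and 59.8 CPM in KO. They were 34.6, 48.0, 24.7 and 48.0 CPM in AF2. No AF2 library exceeded 48.04 CPM, a level passed by 4 of 6 WT libraries, but WT 1 and WT 4 lay within the AF2 range. Against WT, the log2 fold change was -0.80 ± 0.34 in AF2, with an unadjusted p of 0.0359 and an edgeR adjusted p of 0.389, and -0.59 ± 0.34 in KO (edgeR adjusted p = 0.532). The last 200 bases of its transcript matched Cyp3a59 at 94.0%, but Cyp3a59 had only 10 reads over the WT libraries, 6 over KO and 1 over AF2. Reads of near-identical copies may still be split in ways the sources do not state.

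Cyp2b10 is the classic target of the constitutive androstane receptor. Its WT values were 8.50 CPM at the lowest, 22.5 CPM at the median and 55.8 CPM at the highest. In KO it had 60.4, 51.2, 55.9 and 34.2 CPM. In AF2 it had 57.3, 12.2, 12.1 and 22.3 CPM. All KO libraries lay above every WT library except WT 5, whereas AF2 1 was the single AF2 library at that level. Relative to WT, its log2 fold change was 0.92 ± 0.52 in KO (95% interval -0.22 to 2.05, edgeR adjusted p = 0.530), the largest positive value among the 9 genes in KO against WT, and -0.06 ± 0.54 in AF2 (edgeR adjusted p = 0.984). AF2 against KO gave -0.97 ± 0.58 (edgeR adjusted p = 0.634). Its closest copy in the last 200 bases, Cyp2b9 at 92.4% identity, had 1 read in all duodenal libraries.

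Cyp2c65 and Cyp2c66 are neighbouring intestinal enzymes that oxidise polyunsaturated fatty acids. Cyp2c65 had a WT minimum of 81.9 CPM, a median of 131.0 CPM and a maximum of 173 CPM. It had 69.1, 127, 123 and 158 CPM in KO. It had 100.4, 107, 75.3 and 81.7 CPM in AF2. The highest AF2 library lay below all WT libraries but WT 4. Its log2 fold change was -0.52 ± 0.22 in AF2, with an unadjusted p of 0.0306 and an edgeR adjusted p of 0.376, and -0.13 ± 0.21 in KO (edgeR adjusted p = 0.862). With no filter on low counts, Cyp2c65 passed in AF2 at -0.53 (edgeR adjusted p = 0.0137), in a setting that called 0.923% of 26009 genes.

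Cyp2c66 had 23.2, 54.6 and 84.8 CPM as the lowest, median and highest WT values. In KO it had 52.2, 63.9, 72.5 and 62.1 CPM. In AF2 it had 57.8, 40.2, 39.4 and 55.5 CPM. All mutant libraries lay inside the WT range. Against WT, the log2 fold change was 0.22 ± 0.27 in KO (edgeR adjusted p = 0.796) and -0.16 ± 0.27 in AF2 (edgeR adjusted p = 0.881). The 3' end of Cyp2c65 matches Cyp2c66 at 93.5% of 201 aligned bases, and that of Cyp2c66 matches Cyp2c65 at 97.3% of 186. Some reads could therefore be assigned to the wrong copy.

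Cyp2d26, a member of the Cyp2d family, ranged from 107.0 CPM through a median of 220.6 CPM to 266 CPM in WT. It had 116, 166, 187 and 205 CPM in KO. It had 179, 206, 137 and 160.5 CPM in AF2. Every mutant library lay inside the WT range and below the WT median. Relative to WT, its log2 fold change was -0.31 ± 0.22 in KO (edgeR adjusted p = 0.619) and -0.30 ± 0.22 in AF2 (edgeR adjusted p = 0.658).

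Cyp2j6, an intestinal member of the family that epoxidises arachidonic acid, had WT values of 39.2 CPM at the lowest, 89.5 CPM at the median and 113 CPM at the highest. Its KO libraries had 66.5, 77.0, 76.0 and 64.8 CPM. Its AF2 libraries had 87.0, 68.9, 70.5 and 63.9 CPM. The mutant libraries lay close together, above WT 1 and below the 4 highest WT libraries, with WT 4 among them. Its log2 fold change was -0.19 ± 0.20 in KO (edgeR adjusted p = 0.750) and -0.16 ± 0.20 in AF2 (edgeR adjusted p = 0.810), with intervals of -0.61 to 0.22 and -0.58 to 0.25.

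Cyp4f14 is a fatty acid omega-hydroxylase that inactivates leukotriene B4. Its lowest WT value was 290.2 CPM, its median 612 CPM and its highest 1368 CPM. In KO it had 344, 352, 425 and 498 CPM. In AF2 it had 413, 494, 330.2 and 304 CPM. All 8 mutant libraries lay below all WT libraries except WT 4, which was lower than any of them. Against WT, the log2 fold change was -0.79 ± 0.34 in KO, with an unadjusted p of 0.0411 and an edgeR adjusted p of 0.413. It was -0.86 ± 0.34 in AF2, with an unadjusted p of 0.0285 and an edgeR adjusted p of 0.370. AF2 against KO gave -0.07 ± 0.37 (edgeR adjusted p = 0.971).

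**Figure D2:**
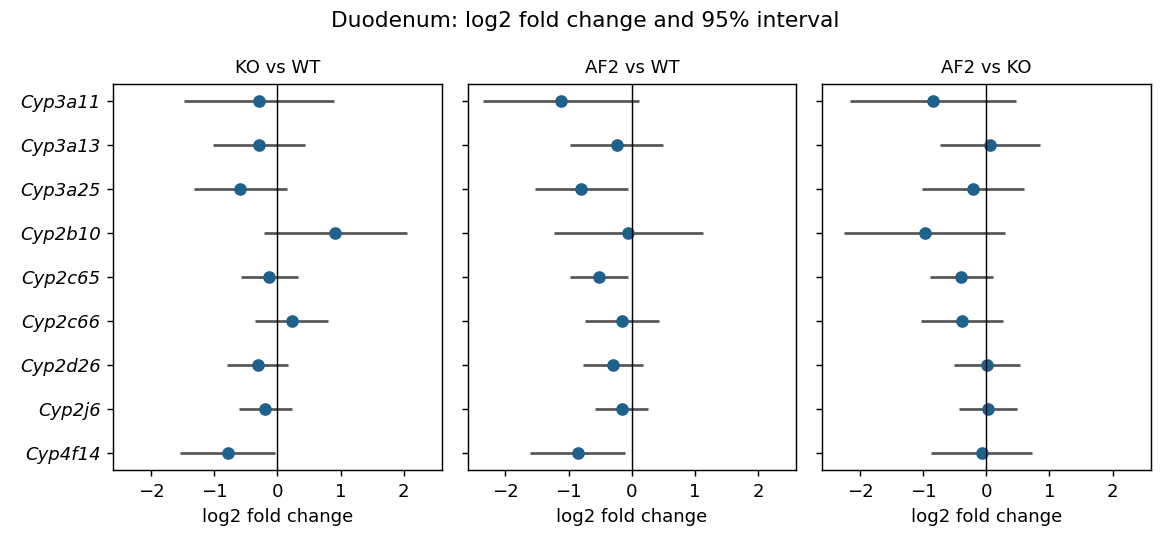
Log2 fold changes (horizontal axes) with unadjusted 95% intervals from edgeR for the 9 P450 genes in KO against WT, AF2 against WT and AF2 against KO, duodenum. Intervals lie fully below 0 for Cyp4f14 in both mutants against WT and for Cyp3a25 and Cyp2c65 in AF2 against WT, and none of these passed after adjustment over 13302 genes.

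Library codes in the labels fall into 3 consecutive runs: WT 1 and WT 2, then WT 3 and WT 4 with all KO libraries, then WT 5 and WT 6 with all AF2 libraries. With the run as a term, AF2 is set against WT 5 and WT 6 and KO against WT 3 and WT 4. Cyp4f14 then had a log2 fold change of -1.45 in AF2 (edgeR adjusted p = 0.0649) and -0.19 in KO (edgeR adjusted p = 0.987). Cyp3a11 had -1.79 in AF2 (edgeR adjusted p = 0.214) and -0.14 in KO (edgeR adjusted p = 0.990). Cyp3a25 had -1.06 in AF2 (edgeR adjusted p = 0.309) and -0.54 in KO (edgeR adjusted p = 0.960). No run holds both KO and AF2 libraries, so AF2 against KO is then set through the WT libraries. It moved to -1.26 for Cyp4f14 (edgeR adjusted p = 0.424), -1.64 for Cyp3a11 (edgeR adjusted p = 0.601) and -0.52 for Cyp3a25 (edgeR adjusted p = 0.853). Without the run term these were -0.07, -0.84 and -0.21. The calls stayed at 0 of 9, but these folds rest on which WT libraries serve as control, since WT 4 was the lowest WT library for Cyp3a11, Cyp3a13, Cyp3a25, Cyp2c65, Cyp2d26 and Cyp4f14 while WT 5 and WT 6 were the highest for Cyp3a13, Cyp2d26 and Cyp4f14.

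Part of the P450 genes varied together from library to library. Of the 36 pairs, 34 had a positive Pearson correlation of log2 CPM over the 14 duodenal libraries, and 18 passed a permutation test after Benjamini-Hochberg adjustment over the pairs. Of these 18, 15 were the pairs among Cyp3a11, Cyp3a13, Cyp3a25, Cyp2c65, Cyp2d26 and Cyp4f14, with r of 0.669 to 0.939; this set of 6 was chosen after the values were seen. Among the other 21 pairs, 3 passed: Cyp3a11 with Cyp2j6, Cyp2b10 with Cyp2c66, and Cyp2c66 with Cyp2j6. Within the second run of library codes, r among the 6 genes was 0.602 to 0.987, and within the third it was 0.701 to 0.976. In these runs of 6 libraries, 13 and 11 of the 36 pairs had an unadjusted exact permutation p under 0.05 and 0 passed the adjustment. All pairs share library depth and composition. The share among pairs of other genes was not computed, so these counts do not set the P450 genes apart.

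**Figure D3:**
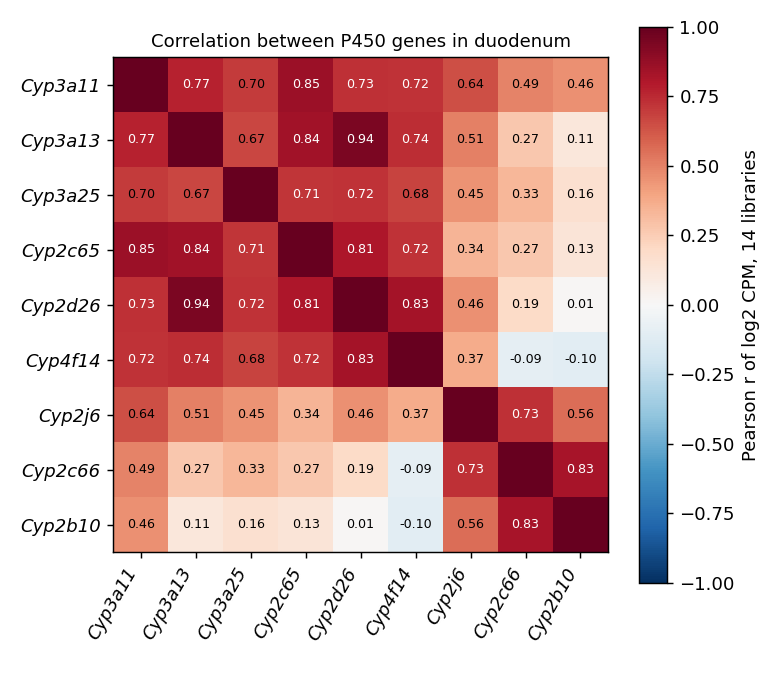
Pearson r of log2 CPM for each pair of P450 genes over the 14 duodenal libraries (colour scale from -1 to 1, r printed in each cell). The first 6 genes form a block with r of 0.67 to 0.94, while Cyp2b10 and Cyp2c66 correlate with each other at 0.83 and with Cyp4f14 at -0.10 and -0.09.

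Cyp3a13 and Cyp2d26, on different chromosomes, were the closest pair, with Pearson r = 0.939 and Spearman rho = 0.895 (permutation p = 1e-05 and 5e-05, adjusted p = 0.00036 and 0.0009). Without WT 4 and KO 1, the libraries farthest from the median of Cyp3a13, r was 0.880. For each pair the libraries left out were those farthest from the median of the gene named first. Extreme libraries of the other gene could therefore stay in. Cyp3a11 followed Cyp2c65 with r = 0.853 and rho = 0.829 (permutation p = 0.00014 and 0.00042, adjusted p = 0.00153 and 0.00414), and r was 0.833 without WT 4 and WT 6. Cyp2b10 followed Cyp2c66 with r = 0.828 and rho = 0.719 (permutation p = 0.00013 and 0.00528, adjusted p = 0.00153 and 0.0146). Without WT 1 and AF2 3 that r was 0.702, and within the second run of library codes and the third it was 0.390 and 0.850. Cyp2c66 with Cyp2j6 had r = 0.728 and rho = 0.429 (permutation p = 0.00584 and 0.127, adjusted p = 0.0146 and 0.183), and r was 0.150 without WT 1 and WT 5, so over the 14 libraries this relation rests on those 2. Within the second run, which holds neither of them, r was 0.681, and within the third, which holds WT 5, it was 0.596. The near-copies Cyp2c65 and Cyp2c66 had r = 0.267 and rho = 0.473 (permutation p = 0.36 and 0.0897, adjusted p = 0.447 and 0.140), and r was 0.213 without KO 1 and AF2 3. Within the second run it was 0.797 and within the third it was 0.189. The value 1e-05 is the smallest that the permutations can give.

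The 9 P450 genes were then set beside 12 markers of villus enterocytes, such as the brush-border enzymes Sis and Lct and the fatty acid binding protein Fabp1. The summed markers were 12440, 20420 and 22830 CPM as the lowest, median and highest in WT, 11830 to 15090 CPM in KO and 12290 to 16530 CPM in AF2. All 12 markers had a log2 fold change below 0 in both mutants, with medians of -0.41 and -0.40, and 0 of 12 passed edgeR's test. An unadjusted p under 0.05 was found for 5 of 12 in KO and 6 of 12 in AF2, beside 11.4% and 11.8% of all genes. WT 4 was the single WT library inside the mutant range, and it was also the WT library with the least Cyp4f14. Paneth cell markers summed to 2273 to 4192 CPM in WT, 3997 to 8260 CPM in KO and 2569 to 7163 CPM in AF2. All 7 of them had a log2 fold change above 0 in both mutants, with medians of 0.945 and 0.577, and 7 in KO and 3 in AF2 had an unadjusted p under 0.05. Smooth muscle markers summed to 422.7 to 692.3 CPM in WT, 480.2 to 630.9 CPM in KO and 637.1 to 853.3 CPM in AF2. In AF2 all 7 had a log2 fold change above 0, with a median of 0.495, and 6 had an unadjusted p under 0.05, whereas in KO the median was -0.09 and 0 did. None of these Paneth cell and smooth muscle markers passed edgeR's test in either mutant. The part of cell content in the P450 values was not tested.

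Cyp4f14 tracked the summed villus markers with r = 0.904 and rho = 0.930 (permutation p = 1e-05 and 3e-05, adjusted p = 9e-05 and 0.000135 over 9 relations). Without WT 5 and WT 6, the libraries farthest from the median of the summed markers, r was 0.909. Within the second run of library codes and the third it was 0.860 and 0.950. Cyp2d26 had r = 0.872 and rho = 0.916 (permutation p = 4e-05 and 1e-05, adjusted p = 0.00018 and 9e-05), with 0.807 without those libraries and 0.746 and 0.983 within the runs. Cyp3a11 had r = 0.683 and rho = 0.640 (permutation p = 0.00938 and 0.0161, adjusted p = 0.0141 and 0.0241), with 0.508 without those libraries and 0.853 and 0.904 within the runs. In all, 6 of 9 genes passed: these and Cyp3a13, Cyp3a25 and Cyp2c65. Cyp2b10 had r = -0.118 and rho = -0.152 (permutation p = 0.687 and 0.606, adjusted p = 0.772 and 0.637), and r was -0.230 without WT 5 and WT 6 and -0.196 and 0.340 within the runs. Cyp2c66 had r = 0.007 and rho = 0.138 (permutation p = 0.982 and 0.637, adjusted p = 0.982 and 0.637), and r was -0.050 without WT 5 and WT 6 and 0.611 and 0.219 within the runs. Cyp2j6 had r = 0.398 and rho = 0.609 (permutation p = 0.159 and 0.0235, adjusted p = 0.205 and 0.0302), and r was 0.116 without WT 5 and WT 6. Within the runs its r was 0.805 and 0.777, beside 0.746 to 0.878 and 0.858 to 0.994 for the 6 genes that passed. The relation was added after the data were seen. The share of all genes that would pass it was not computed, so the count of 6 does not set these genes apart.

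**Figure D4:**
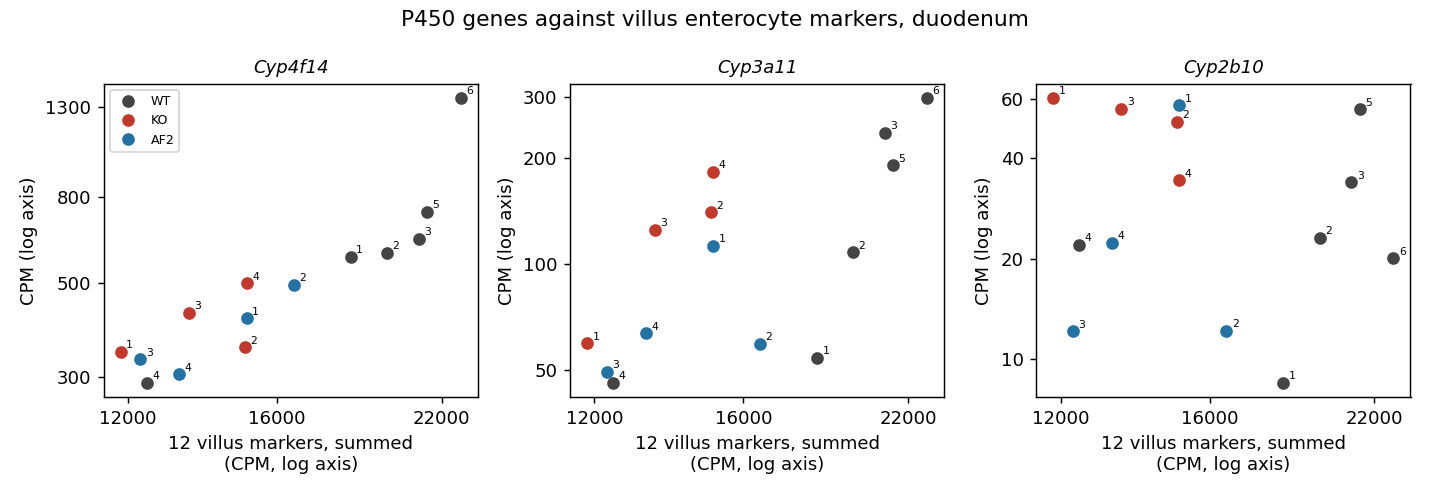
CPM of Cyp4f14, Cyp3a11 and Cyp2b10 (vertical log axes) against the summed CPM of 12 villus enterocyte markers (horizontal log axis), 1 point per duodenal library, numbered within its genotype. Cyp4f14 rises along the markers across all 3 genotypes (r = 0.904), Cyp3a11 less tightly (r = 0.683), and Cyp2b10 shows no such relation (r = -0.118).

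Across 9316 genes of at least 3 average log2 CPM, the genes most like each P450 in level over the 14 libraries were read off by Pearson r, as a description. For Cyp3a11 they were the drug and cation exporter Slc47a1 (r = 0.907), Tmem37 (0.889) and Prkcd (0.880). For Cyp3a13 they were the soluble epoxide hydrolase Ephx2 (r = 0.920), Prdx5 (0.916) and Becn1 (0.915), and for Cyp3a25 Nadk2 (0.908), Trim16 (0.882) and Riok3 (0.871). Ephx2 was also nearest to Cyp2d26 (r = 0.971), followed by Fth1 (0.944) and Sectm1b (0.937). Cyp2c65 was nearest to Dhrs1 (0.916), Gm5485 (0.912) and Scp2 (0.907), and Cyp2c66 to Svip (0.893), Cdadc1 (0.852) and Col6a4 (0.807). Cyp2b10 was nearest to Rexo4 (0.844), Mbp (0.828) and Ptgs1 (0.820). Cyp2j6 was nearest to the intestinal peptide uroguanylin Guca2b (0.918), Pbld2 (0.893) and Muc3 (0.879), and Cyp4f14 to Gng12 (0.963), Slc25a3 (0.954) and Tmem8 (0.946).

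The genes that P450 enzymes work with were counted in duodenum from lists. Of 14 genes of electron supply and haem synthesis, 0 were called in either mutant against WT; the smallest p-values were those of Cyb5b in KO (log2 fold change -0.41 ± 0.13, edgeR adjusted p = 0.214) and Urod in AF2 (0.43 ± 0.14, edgeR adjusted p = 0.202), and Por had -0.37 ± 0.15 in AF2 (edgeR adjusted p = 0.347). Of 16 receptors and regulators that set P450 transcription, 0 were called; Nr0b2, a repressor, had -0.73 ± 0.27 in KO (edgeR adjusted p = 0.314) and Hnf4g had -0.40 ± 0.15 in AF2 (edgeR adjusted p = 0.296). Of 28 conjugating and hydrolysing enzymes tested, 0 were called; the sulfotransferase Sult2b1 came nearest in KO (-0.92 ± 0.18, edgeR adjusted p = 0.0605) and the glutathione transferase Gsta1 in AF2 (-0.59 ± 0.16, edgeR adjusted p = 0.135). Of 14 drug transporters 0 were called, with Abcc2 at -0.50 ± 0.15 in KO (edgeR adjusted p = 0.212) and Slco2b1 at 0.46 ± 0.17 in AF2 (edgeR adjusted p = 0.282). At an unadjusted p under 0.05 the counts were 4, 1, 3 and 4 in KO and 4, 2, 4 and 1 in AF2 for these lists in order. Of all genes, 11.4% in KO and 11.8% in AF2 reached that level.

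Of the other Cyp1 to Cyp4 genes in duodenum, 0 of 18 tested were called in KO or AF2 against WT. At an unadjusted p under 0.05 it was 1 of 18 in each, beside 11.4% and 11.8% of all genes. Cyp4f16 had -0.63 ± 0.20 in KO (edgeR adjusted p = 0.241), and Cyp2d10 had -1.67 ± 0.58 in AF2 (edgeR adjusted p = 0.250). Of 16 clock genes, which drive the daily cycle of many P450 genes, 0 were called and 8 had an unadjusted p under 0.05 in KO against 1 in AF2. Dbp, a clock output factor, had -1.91 ± 0.46 in KO (edgeR adjusted p = 0.175) and Arntl had 1.34 ± 0.28 (edgeR adjusted p = 0.0755). Of 6 known receptor targets tested, the calcium channel Trpv6 fell in AF2 (-3.56 ± 0.64, edgeR adjusted p = 0.0392) and had -1.33 ± 0.52 in KO (edgeR adjusted p = 0.324). Its call in AF2 was lost on leaving out any of 8 of the 14 libraries (WT 1, WT 2, WT 3, WT 6, KO 3, AF2 1, AF2 3 or AF2 4), with adjusted p of 0.0108 to 0.216 over all 14, as well as with the replicate block and without WT 3 and KO 3 together. Trpv6 is a low gene here, with 127 reads over the WT libraries, 17 over KO and 4 over AF2.

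The 2 Cyp3a genes with rows in the kidney table, Cyp3a11 and Cyp3a13, had few or no reads there. Cyp3a11 had 0 reads in all 14 kidney libraries, and its WT duodenum mean was at least 752-fold above the limit of 3 reads over the WT kidney group (0.207 CPM). Cyp3a13 had 5 reads over the 6 WT kidney libraries, 7 over KO and 6 over AF2, against 28034 over the WT duodenum libraries, a ratio of read rates of 3329 with a counting interval of 1426 to 10250. Cyp4f14 had 37 reads over WT kidney and 16363 over WT duodenum, a ratio of 263 (counting interval 190.4 to 373). Intervals and limits cover counting error only.

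Between WT duodenum and WT kidney 3 of 4 genes counted were called, Cyp3a13, Cyp4f14 and Cyp2j6, all higher in duodenum. Over all 14944 genes, 69.9% were called. Cyp3a11, without reads in kidney, was left out of this count by choice. Cyp2j6 had 81.4 ± 25.3 CPM in duodenum and 27.9 ± 2.58 CPM in kidney (mean ± SD, n = 6 each), a log2 difference of 1.47 ± 0.16 (edgeR adjusted p = 1.17e-10). Every WT duodenum library was above every WT kidney library. Cyp2d26 had 209 ± 58.8 CPM in duodenum and 198 ± 15.2 CPM in kidney, a log2 difference of 0.02 ± 0.17 (95% interval -0.33 to 0.36, edgeR adjusted p = 0.930), whose sign turned with the scaling (-0.01 with RLE size factors).

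In kidney 0 of the 3 genes tested were called in KO against WT and 1 of 3 in AF2 against WT, where 0.844% and 2.71% of 13502 genes were called; in AF2 against KO it was 0 of 3 and 0.333%. The one called was Cyp2j6. Its WT kidney values were 24.3, 28.1 and 31.8 CPM as the lowest, median and highest. In KO it had 35.0, 27.2, 31.9 and 26.5 CPM. In AF2 it had 39.8, 42.5, 44.1 and 33.2 CPM. All AF2 libraries lay above all WT libraries, which held for 4.73% of genes in either direction, while KO overlapped WT. Relative to WT, its log2 fold change was 0.51 ± 0.14 in AF2 (edgeR adjusted p = 0.0453) and 0.10 ± 0.14 in KO (edgeR adjusted p = 0.853), and AF2 against KO gave 0.41 ± 0.16 (edgeR adjusted p = 0.296).

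The Cyp2j6 call in kidney lay at the threshold. It was lost on leaving out any of 13 of the 14 kidney libraries in turn, with adjusted p of 0.0204 to 0.154 over all 14, and held only without AF2 4. The run of library codes as a term gave 0.58 (edgeR adjusted p = 0.219) and the replicate block 0.48 (edgeR adjusted p = 0.140). Proximal tubule markers, 10 genes, summed to 15950 to 20120 CPM in WT, 14970 to 17670 CPM in KO and 12120 to 16270 CPM in AF2, and podocyte markers, 4 genes, to 220.1 to 283 CPM, 273 to 303 CPM and 352 to 456 CPM. Another list held 8 markers of thick limb, distal tubule and collecting duct. They summed to 3651 to 4464 CPM in WT, 4649 to 5345 CPM in KO and 4907 to 5638 CPM in AF2. WT overlapped neither mutant. Of the 8 genes, 2 were called higher in AF2, the ion transporter Slc12a1 (0.43 ± 0.11, edgeR adjusted p = 0.0203) and uromodulin Umod (0.52 ± 0.11, edgeR adjusted p = 0.00566). In KO it was 1, Slc12a1 (0.45 ± 0.11, edgeR adjusted p = 0.0356). Leaving out single libraries ended the Slc12a1 call in 4 of 14 cases for AF2 and 8 of 14 for KO, and the Umod call in 0 of 14. The library code term and the replicate block each ended the Slc12a1 call in both mutants. The replicate block ended the Umod call too. Their part in the Cyp2j6 value was not tested.

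**Figure D5:**
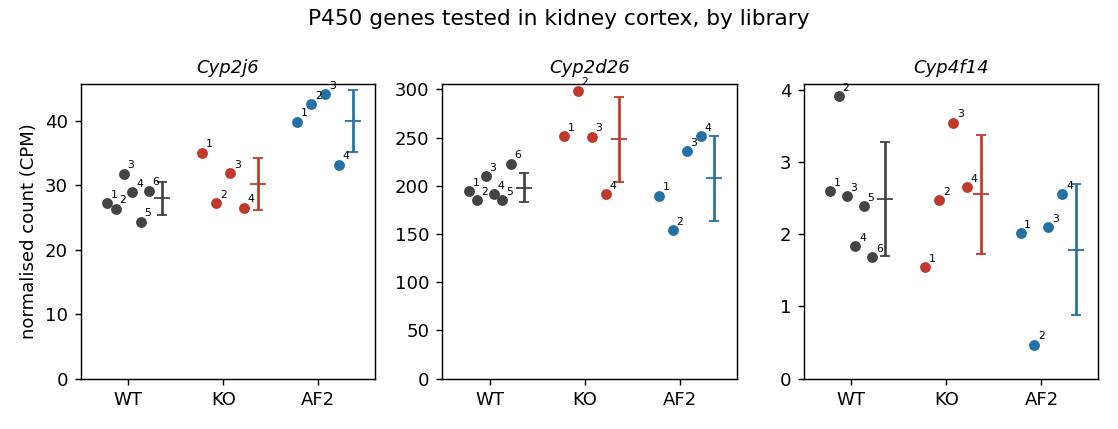
Normalised counts (CPM, linear axes starting at 0) of the 3 P450 genes tested in kidney cortex, 1 numbered point per library with the group mean and SD (6 WT, 4 KO and 4 AF2 libraries). The AF2 libraries of Cyp2j6 sit at 33.2 to 44.1 CPM above the WT range of 24.3 to 31.8 CPM, and Cyp4f14 stays below 4 CPM.

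Cyp2d26 in kidney ranged from 184.9 CPM through a median of 193 CPM to 223 CPM in WT. It had 252, 299, 250.8 and 191 CPM in KO. It had 189.6, 154, 236 and 251 CPM in AF2. In KO, 3 of 4 libraries lay above the WT range and KO 4 within it. Its log2 fold change was 0.32 ± 0.12 in KO, with an unadjusted p of 0.0142 and an edgeR adjusted p of 0.296, and 0.07 ± 0.13 in AF2 (edgeR adjusted p = 0.860). Cyp4f14 had 1.68 to 3.91 CPM in WT kidney and a log2 fold change of 0.05 in KO (95% interval -0.92 to 1.01) and -0.47 in AF2 (95% interval -1.49 to 0.54), neither of which passed (edgeR adjusted p = 0.982 and 0.720).

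The difference of the genotype effect between tissues was tested directly. With Cyp3a11 left out again, 0 of 4 genes counted were called for a KO or AF2 effect that differed between duodenum and kidney. Over all 14944 genes, 0.0535% and 0.381% were called. At an unadjusted p under 0.05 it was 1 of 4 for each effect, beside 7.99% and 10.7% of all genes: Cyp2d26 for KO (-0.68 ± 0.27, edgeR adjusted p = 0.476) and Cyp2j6 for AF2 (-0.69 ± 0.24, edgeR adjusted p = 0.226). Cyp2j6 passed when duodenum WT 1, its lowest WT library, was left out (-0.84, edgeR adjusted p = 0.0444). Cyp3a13 was tested too, but its kidney reads are too few for its difference to be read.

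Other P450 genes did change in kidney. Of 23 other Cyp1 to Cyp4 genes tested there, Cyp2d9 rose in KO (log2 fold change 2.02 ± 0.29, edgeR adjusted p = 0.000655) and AF2 (2.27 ± 0.29, edgeR adjusted p = 5.05e-05). Its relative Cyp2d26 lies on the chromosome of Vdr. Whether DNA linked to the altered Vdr allele had a part in the Cyp2d9 rise was not tested. Cyp4b1 fell in KO (-2.15 ± 0.38, edgeR adjusted p = 0.0245) and AF2 (-3.02 ± 0.41, edgeR adjusted p = 0.00151). Cyp2a5 fell in KO (-1.71 ± 0.39, edgeR adjusted p = 0.0319) and AF2 (-1.94 ± 0.40, edgeR adjusted p = 0.00563). Cyp2j5, the abundant kidney relative of Cyp2j6, fell in AF2 against WT (-0.67 ± 0.09, edgeR adjusted p = 2.7e-05) and against KO (-0.48 ± 0.10, edgeR adjusted p = 0.0225). Its WT values were 964.4, 1002 and 1071 CPM as the lowest, median and highest, and its AF2 values were 658, 609, 649 and 612 CPM, with no overlap. The calls of Cyp2d9 in both mutants and of Cyp4b1, Cyp2a5 and Cyp2j5 in AF2 against WT held when any 1 of the 14 libraries was left out. The KO call was lost in 4 of 14 cases for Cyp4b1 (without WT 2, KO 2, KO 3 or KO 4) and in 6 of 14 for Cyp2a5 (without WT 3, WT 4, WT 5, KO 2, KO 3 or KO 4), and the call of Cyp2j5 against KO in 4 of 14 (without KO 2, KO 4, AF2 1 or AF2 2). The library code term ended these 3 calls too, and that of Cyp2a5 in AF2. In AF2 kidney Cyp2j5 lay below WT and Cyp2j6 above it.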

How the data were processed

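RNA was measured in 14 duodenum and 14 kidney cortex samples. Per the labels' protocols, TRIzol-extracted total RNA was made into QuantSeq libraries, which read the 3' ends of transcripts. The authors deposited 1 table of raw counts per tissue, with gene symbols in rows and no normalisation, per the file headers. The submitters' processing notes name mm10 and limma 3.34.9 without a role. The aligner, counting tool, strand setting and filters were not given in the sources used here. All deposited counts were even (0 odd values), so read numbers are counts over 2, while the tests took the deposited values unchanged.

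Genotypes were taken from sample titles, and the library code of each sample matched its column. No 2 libraries of a group agreed within sampling noise (smallest chi-square per degree of freedom 5 in duodenum and 1.96 in kidney).

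Each tissue was fitted with edgeR 4.0.16 (R 4.3.3), all 14 libraries in 1 fit: filterByExpr by group, TMM scaling, robust quasi-likelihood F tests, two-sided, genotype as the only term, Benjamini-Hochberg adjustment over all genes tested, calls at an adjusted p under 0.05. Tests between tissues used 1 fit of all 28 libraries and 14944 genes. Standard errors were derived from each fold change and its F statistic. CPM are counts over TMM-scaled library size. Correlations used log2(CPM + 0.5) and 100000 permutations. A group with 0 reads was given a limit of 3 reads. Ratios of read rates have exact 95% counting intervals.

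Alternatives were RLE size factors, DESeq2 1.42.0, limma-voom (limma 3.58.1), no filter, a filter of 10 CPM in 4 libraries, halved counts, replicate and library-code blocks, and leaving out each library. The fits were tested on simulated data. Gene coordinates of transcripts and 3' ends came from GENCODE vM21 (mm10), and promoter windows from RefSeq (GRCm38.p6). The 9 genes and the lists of partner genes and markers were chosen with earlier results of these data known. Named are the 9 genes, Vdr, called members of each list or those with the smallest p, said not to pass, and the 3 genes most like each P450.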

Additional observations from a re-analysis of the deposited data

How the results depend on the processing

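The calls and fold changes of the 9 genes within a tissue were recomputed under 8 processing settings and without each library in turn; those between tissues had 7, without the library code block, and the correlations had the settings named for them here. In the duodenal comparisons of genotypes the count of called P450 genes stayed at 0, except that without a filter on low counts it was 1 for AF2 against WT (Cyp2c65). The kidney count for AF2 against WT, 1 in the report, was 0 with RLE size factors, limma-voom, no filter, the replicate block and the library code block, and 0 to 1 when each library was left out. The AF2 effect in duodenum minus kidney gave 0 to 1 called genes over the libraries left out. The 3 genes called between WT tissues were called under every setting run. The correlation count of 18 pairs was 17 on residuals from the genotype means. It was 15 without the libraries farthest from the median of the first gene of each pair. It was 18 without WT 3 and KO 3 and 20 with Spearman's rho. The count was 0 within the second and 0 within the third run of library codes, which hold 6 libraries each. The cause of these moves was not tested.

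No log2 fold change past the threshold changed sign. Among those that did not pass, signs turned as follows. With the replicate block, duodenal Cyp3a11 in KO was 0.33 and Cyp2j6 0.0241, duodenal Cyp2b10 in AF2 was 0.0863, Cyp2c66 0.0069 and Cyp2j6 0.0689, and kidney Cyp4f14 in KO was -0.11. Samples with the same replicate number had correlations of -0.186 to 0.158 in their deviations from the group means. Samples with unlike numbers were not set beside them, so these values cannot decide whether equal numbers mark the same animal. The main fits used no pairing. With the library code block, duodenal Cyp3a13 in KO was 0.0624 and Cyp2d26 0.11, kidney Cyp2j6 in KO was -0.0131, and in AF2 against KO duodenal Cyp3a13 was -0.63, Cyp2d26 -0.73 and Cyp2j6 -0.36. Without WT 3 and KO 3, a setting added after seeing the data, Cyp2b10 in AF2 was 0.0155. Cyp2d26 between WT tissues was -0.0145 with RLE size factors, -0.0147 with DESeq2, -0.0153 with limma-voom, -0.0544 with the filter of 10 CPM in 4 libraries and -0.0388 with the replicate block.

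With each library left out in turn, the log2 fold change ran from -0.52 to 0.0091 for Cyp3a11 and from -0.29 to 0.0679 for Cyp2c65 in duodenum KO against WT. In duodenum AF2 against WT it ran from -0.79 to 0.27 for Cyp2b10 and from -0.31 to 0.0137 for Cyp2c66. In duodenum AF2 against KO it ran from -0.15 to 0.28 for Cyp3a13, -0.12 to 0.13 for Cyp2d26, -0.0627 to 0.0869 for Cyp2j6 and -0.21 to 0.0475 for Cyp4f14. In kidney it ran from -0.19 to 0.23 for Cyp4f14 in KO and from -0.041 to 0.18 for Cyp2d26 in AF2, and between WT tissues from -0.0587 to 0.16 for Cyp2d26.

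Depth limits the low genes: Cyp2b10 had 225 reads over the AF2 duodenum libraries, and Cyp4f14 had 17 over AF2 kidney.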
